A study of Mus musculus with 2 samples.

Results

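Ciliated airway cells were studied here as the cells that carried the transcripts of motile cilia in 2 single-cell libraries of whole mouse lung. A cell was a member if at most 10% of its unique molecular identifiers (UMIs, 1 per captured transcript) lay on mitochondrial genes, if at least 4 of Foxj1, Ccdc153, Tmem212, Dynlrb2, Sec14l3 and Ccdc113 had a UMI, and if Ptprc, which marks blood cells, had none. Of 14971 cells within the mitochondrial limit, 226 met the rule, 111 of 8026 in the control library and 115 of 6945 in the fibrosis library. Each library came from 1 male C57Bl/6J mouse aged 3 months. Mice received 100 µg of TiO2 or of crocidolite asbestos, a fibre that scars the lung, by the intratracheal route, and lungs were taken after 14 days. The labels do not say which particle either mouse received, and the names control and fibrosis are used for the libraries. Perfused lungs were digested with dispase and DNase I, red cells were lysed, and the suspension was run on 10x Genomics 3′ V2 chips without sorting. With 1 library in each group no difference has a replicate check, no test was possible, and every 95% interval below covers counting error only.

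Multiciliated cells line the conducting airways and drive mucus toward the throat with beating cilia. Each cilium is built on a basal body around an axoneme, a ring of microtubule doublets whose dynein arms slide the doublets, with radial spokes and a central pair that control the beat. The factor Foxj1, with RFX factors, switches on this programme, and intraflagellar transport carries the parts along the growing cilium. Club cells, the secretory neighbours of ciliated cells in the mouse airway, make the secretoglobin Scgb1a1 and can give rise to ciliated cells.

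The deposited tables held 15453 cells, 8280 with 36632591 UMIs in the control library and 7173 with 38090308 UMIs in the fibrosis library. The mitochondrial limit removed 254 and 228 of them. The libraries shared 89 cell barcodes, of which 2 belonged to control members and none to fibrosis members. A caller of doublets (droplets holding more than 1 cell) marked 0 control cells and 159 fibrosis cells at its own threshold, so it did not work on the control library and no cell was removed with it.

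Members made up 1.38% (1.14 to 1.66) of control cells and 1.66% (1.37 to 1.98) of fibrosis cells, with exact Clopper-Pearson intervals. The log2 ratio of the shares was 0.26 (-0.13 to 0.65), an interval that spans 0. Among cells without a Ptprc UMI, the shares were 3.84% of 2890 control cells and 3.85% of 2989 fibrosis cells. Without the condition on Ptprc, 140 of 8026 control and 165 of 6945 fibrosis cells met the rule, a larger difference in share. The comparison of shares thus depends on that condition. Members were not equally deep in the libraries. The median member held 6383 UMIs (range 1476 to 87133) and 2697 genes in the control library, and 9782 UMIs (2001 to 58558) and 3131 genes in the fibrosis library. The log2 ratio of the medians was 0.62, but it was 0.25 in the Scgb1a1-poor members described below, and their Scgb1a1-rich counterparts had nearly equal medians of 28246 and 27714 UMIs. The summed counts came to 1597527 and 1801003 UMIs.

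Members were selected on the UMIs of the 6 genes and of Ptprc, so the presence and the level of these genes are a description and support nothing. All 6 had a UMI in 85 control and 86 fibrosis members. Exactly 4 were seen in 4 and 6 members, whose median sums over the 6 genes were 7 and 16 UMIs. Just outside the rule, 6 control and 3 fibrosis cells without Ptprc had 3 of the genes, with median sums of 4 and 3 UMIs. The condition on Ptprc left out 29 control and 50 fibrosis cells with 4 or more of the genes, 20.7% (14.3 to 28.4) and 30.3% (23.4 to 37.9) of such cells. Those cells were deep, with medians of 14494 and 18816.5 UMIs.

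The members were of 2 kinds, told apart by Scgb1a1 and by depth. In 74 control and 69 fibrosis members Scgb1a1 took under 10% of the UMIs, with medians of 0.821% and 0.494%. In 37 control and 46 fibrosis members it took 10% or more, with medians of 45.0% and 33.8%. Only 2 control and 4 fibrosis members lay between 5% and 15%. This division was noticed in the data and the 10% value was set afterwards, so the kinds are ranges of Scgb1a1 and not types. They are called Scgb1a1-poor and Scgb1a1-rich members here.

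**Figure D1:**
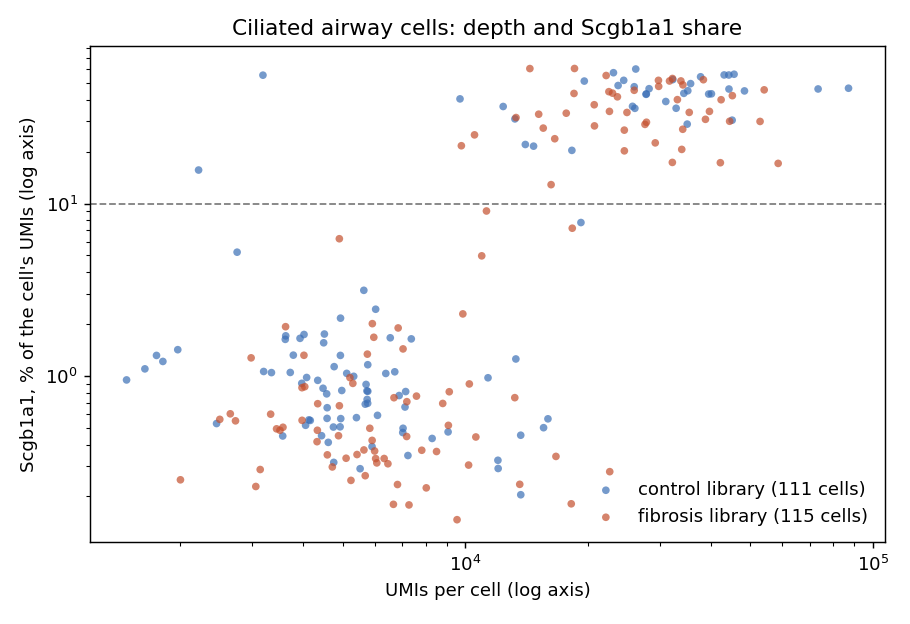
Each point is 1 ciliated member, with its UMIs on the x axis (log scale) and the percent of them on Scgb1a1 on the y axis (log scale), blue for the control and red for the fibrosis library. The dashed line is 10%: members above it had median depths of 28246 and 27714 UMIs, and members below it 4963.5 and 5916.

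The Scgb1a1-rich members were 33.3% (24.7 to 42.9) of control members and 40.0% (31.0 to 49.6) of fibrosis members, and they held 72.1% and 73.5% of all member UMIs. They had a median of 8 of the 8 club markers (Scgb3a2, Cyp2f2, Cldn10, Hp, Cckar, Gabrp, Chad and Aldh1a1), against 3 in the Scgb1a1-poor members of each library. Their rule genes were no thinner in UMIs: the median sum was 62 in control and 60.5 in fibrosis Scgb1a1-rich members, against 41 and 48 in Scgb1a1-poor members. The median doublet score was 0.109 and 0.103 in the rich and 0.031 and 0.028 in the poor members. Among the top scores, which numbered the expected doublets of each library, were 2 control and 7 fibrosis rich members and 7 and 6 poor ones. Whether a rich member is 1 cell with both programmes or a droplet with a ciliated and a club cell was not tested. As a reference, cells with at most 1 rule gene, at least 4 club markers, 10% or more Scgb1a1 and no Ptprc were taken as club-like, also after the values were seen. They numbered 31 and 61, with medians of 9881 and 10136 UMIs and of 57.8% and 47.1% Scgb1a1. Because the rich members weigh so much in any sum over members, results are given for the poor and the rich members side by side.

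Levels are given as CPM, the gene's UMIs over all UMIs of the same cells scaled to 1e6. Foxj1, the master regulator, stood at 909 CPM (823 to 1002, exact Poisson interval) in control and 999 CPM (911 to 1093) in fibrosis Scgb1a1-poor members, and at 325 CPM and 413 CPM in the rich members. It was at 11.1 CPM and 0 CPM in club-like cells and at 0.376 CPM and 4.73 CPM in cells with B cell markers, which should lack it. With every cell thinned to 1500 UMIs, a Foxj1 UMI remained in 69.9% of control and 72.5% of fibrosis poor members and in 0.107% and 1.05% of B-cell-like cells. Before thinning the poor-member shares were 95.9% and 98.6%, at median depths of 4963.5 and 5916 UMIs, and the B-cell-like shares were 0.102% and 1.47% at 2010 and 2734 UMIs. Since Foxj1 helped to choose the cells, its ratio is a description only: on the log2 scale it was 0.14 (-0.06 to 0.33) in poor, 0.35 (0.16 to 0.54) in rich and 0.22 (0.09 to 0.36) in all members.

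The other rule genes are given as a description in the same way. Ccdc153, a coiled-coil protein of cilia, stood at 2092 CPM in control and 1937 CPM in fibrosis poor members, with a log2 ratio of -0.11 (-0.24 to 0.02). Dynlrb2, a dynein light chain, was at 1795 CPM and 1785 CPM, and its log2 ratio was -0.01 (-0.15 to 0.13). Tmem212, a membrane protein, was at 1207 CPM and 1183 CPM. The lipid-binding protein Sec14l3 was at 1860 CPM and 1554 CPM, with a ratio of -0.26 (-0.40 to -0.11), and Ccdc113 at 429 CPM and 341 CPM, with a ratio of -0.33 (-0.64 to -0.02). In the rich members the last 2 ratios were -0.04 and -0.03, with intervals that span 0.

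Beyond the rule, members were set against all other cells of their library, the Ptprc-positive cells with rule genes included. This comparison describes what came with the rule and tests nothing. Of 9514 genes with at least 20 UMIs, 724 were at least 8-fold higher in members in both libraries, which is 7.61%. In the poor members alone it was 820 of 6550, or 12.5%. Among the 15 genes with the largest excess in poor members were Fam183b, a cilium protein, at 171-fold and 98.7-fold in the control and fibrosis libraries, Sntn, a protein of the ciliary tip, at 161-fold and 84.7-fold, and Agr3, an airway disulfide isomerase, at 166-fold and 92.2-fold. Folds were lower in the fibrosis library for each of these, where the other cells also held more Foxj1, at 20.1 CPM against 7.53 CPM. The other cells included 29 control and 50 fibrosis cells with Ptprc and 4 or more rule genes, whose part in these values was not tested. The cilium lists stood far above the background: 18 of 19 dynein arm genes, 18 of 18 radial spoke and central pair genes, 26 of 28 genes of nexin links and doublet inner proteins, 23 of 28 intraflagellar transport genes and 12 of 15 genes of dynein assembly and docking passed 8-fold in poor members. Lists of antigen presentation (0 of 11) and interferon response (1 of 11) did not. Among the regulators it was 4 of 8, with Trp73, which acts above Foxj1, at 130-fold and 55.4-fold, Myb, which acts early in the programme, at 37.0-fold and 32.9-fold, and Rfx3, a partner of Foxj1, at 15.1-fold and 18.9-fold.

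The starts of these genes were searched for GTTGCC, part of the X-box bound by RFX factors, on both strands, in the 250 bases before each start in RefSeq's GRCm38.p6 table. No other motif was searched. Of the 6 rule genes and the 15 leading genes, 19 had a start in the table and 8 of those held the motif, beside 11.8% of all 27025 genes with a start. Over the whole set of 820 genes the check is void, since 635 had a start. The last 80 bases before the start are shown for the 3 leading genes that held a match there clear of annotated exons. Capitals mark GTTGCC or its reverse complement GGCAAC, and each sequence runs 5′ to 3′ toward the gene.
Fam183b, chr11:58801961-58802040, minus strand: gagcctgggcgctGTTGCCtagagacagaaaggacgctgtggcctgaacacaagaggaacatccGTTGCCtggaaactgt
Sntn, chr14:13670796-13670875, plus strand: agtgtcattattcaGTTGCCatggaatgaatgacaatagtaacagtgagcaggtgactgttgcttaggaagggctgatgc
1110017D15Rik, chr4:41507765-41507844, minus strand: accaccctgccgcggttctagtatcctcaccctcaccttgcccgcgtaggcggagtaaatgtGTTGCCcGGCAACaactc
Fam183b carried the match at 2 places, and the start shown for 1110017D15Rik is 1 of 2 in the table. In that gene a match on each strand lay side by side, 1 base apart. A match is a description of letters and not a binding site.

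Other lung cells were looked for in the members with marker lists. All 20 ciliated markers had UMIs in both libraries, with a sum of 22360 CPM in control and 19462 CPM in fibrosis poor members. The 6 rule genes are among the 20, so their part was set by the selection. They held 0.829% and 0.780% of the UMIs of these members. Basal cell markers (6 genes) summed to 0 UMIs in control and 22 UMIs in fibrosis members. Deuterosomal markers, which mark cells that are still making basal bodies, summed to 132 CPM and 174 CPM in poor members, and most of that was Myb (52 and 75 UMIs). AT2 markers, of surfactant-making alveolar cells, summed to 20398 CPM and 25317 CPM in poor members, against 8966 CPM and 29863 CPM in B-cell-like cells, which do not make them, and 231589 CPM and 203723 CPM in AT2-like cells. None of the 8 AT2 markers was at 0 in members, and their part in the results below was not tested. Neutrophil markers summed to 548 CPM and 274 CPM in poor members and to 9335 CPM and 5532 CPM in B-cell-like cells.

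**Figure D2:**
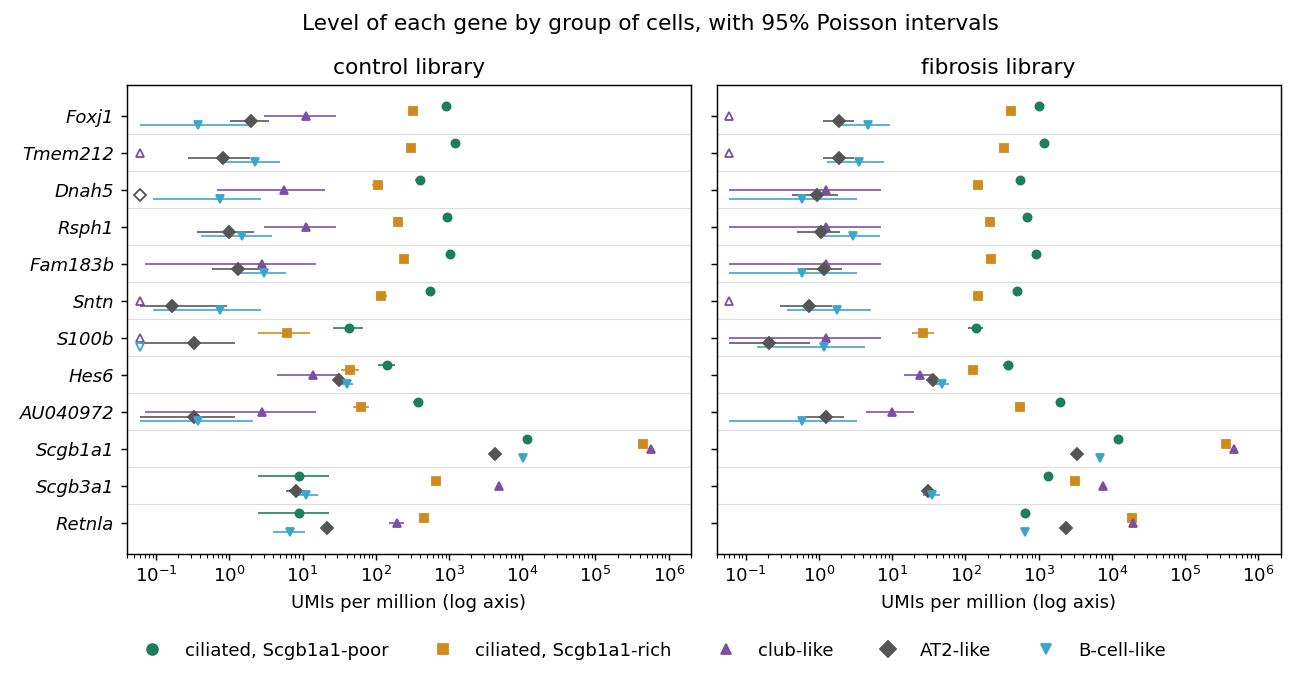
Level of 12 genes in CPM (log x axis) in poor and rich members and in club-like, AT2-like and B-cell-like cells, control library left and fibrosis library right, with bars for 95% Poisson intervals and open symbols at the left edge for 0 UMIs. Cilium genes such as Foxj1 (909 and 999 CPM in poor members) lie to the right in members of either kind, Scgb1a1 lies to the right in rich members and club-like cells, and Retnla is shifted to the right in every group of the fibrosis library.

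The main comparison asked how ciliated cells of the fibrosis library differed from those of the control library. A gene with at least 20 UMIs was counted as higher or lower where the ratio was at least 2-fold and its interval lay clear of 0 on the log2 scale. Over all members 295 of 9520 genes were higher (3.1%) and 98 lower (1.03%). In the poor members 161 of 6556 were higher (2.46%) and 117 lower (1.78%), and in the rich members 354 of 8047 were higher (4.4%) and 67 lower (0.833%). The median log2 ratio of all tested genes was 0.09 in all members, -0.03 in poor and 0.18 in rich members. Poor and rich members come from the same 2 mice, so their values are not independent. Many genes also moved in other cells, so the median log2 ratio over at least 3 of 5 classes (AT2-like, endothelial-like, B-cell-like, T-cell-like and alveolar-macrophage-like cells) is called the shift of a gene and is given for most genes named as higher or lower that have one. Of the 137 higher genes of the poor members with a shift, 31 were also 2-fold higher in those classes.

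Few genes of the cilium's machinery passed the 2-fold limit in either direction. Over 5 lists (dynein arms, dynein assembly and docking, radial spokes and central pair, nexin links and doublet inner proteins, and intraflagellar transport) 110 genes could be tested in poor members: 1 was higher, 0 were lower, and the median log2 ratio was -0.10, with values from -0.82 to 1.02. The rule genes Dynlrb2 and Ccdc113, which helped to choose the cells, are among the 110. Intervals of 90 of the genes spanned 0, those of 15 lay below 0 and those of 5 above 0. In rich members 3 of 110 were higher and 0 lower, with a median of 0.13. These shares lie near or under the background of all genes.

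Dnah5, the heavy chain of the outer dynein arm, stood at 400 CPM (343 to 463) in control and 553 CPM (488 to 624) in fibrosis poor members, with a log2 ratio of 0.47 (0.19 to 0.75). In rich members it was 107 CPM and 150 CPM, with a ratio of 0.48 (0.15 to 0.82), which is short of 2-fold. Rsph1, a radial spoke head protein, was at 934 CPM and 687 CPM in poor members, with a ratio of -0.44 (-0.66 to -0.23), and at 202 CPM and 218 CPM in rich members, with a ratio of 0.10 (-0.15 to 0.36). The 2 kinds of member thus gave Rsph1 ratios of opposite sign. Dyx1c1, a factor that assembles dynein arms in the cytoplasm, had 19 UMIs in 18 control and 42 UMIs in 29 fibrosis poor members, a log2 ratio of 1.02 (0.23 to 1.91). In rich members it had 11 and 34 UMIs, with a ratio of 1.38 (0.41 to 2.56), and it passed the 2-fold limit in both. Without the member with the most Dyx1c1 UMIs the ratio in poor members was 0.94. The spoke protein gene Rsph3b had 7 and 29 UMIs over all members, with a ratio of 1.80 (0.66 to 3.31), and was too thin to be tested in either kind alone.

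None of 12 tubulin genes, 21 genes of basal bodies and polarity, 11 genes of nucleotide and energy supply and 9 programme regulators passed in poor members, with medians of -0.13, -0.03, -0.20 and 0.12. The regulators include the rule gene Foxj1. The axonemal alpha-tubulin gene Tuba1a was lower by less than the limit, at 2462 CPM and 1747 CPM with a ratio of -0.49 (-0.63 to -0.36), and the 5 other classes had a shift of -0.62. Tppp3, a tubulin-binding protein, stood at 5157 CPM and 4036 CPM in poor members, with a ratio of -0.35, and at 1143 CPM and 1244 CPM in rich members, with a ratio of 0.12. Rfx3 had 35 and 66 UMIs in poor members, with a ratio of 0.81 (0.20 to 1.45).

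**Figure D3:**
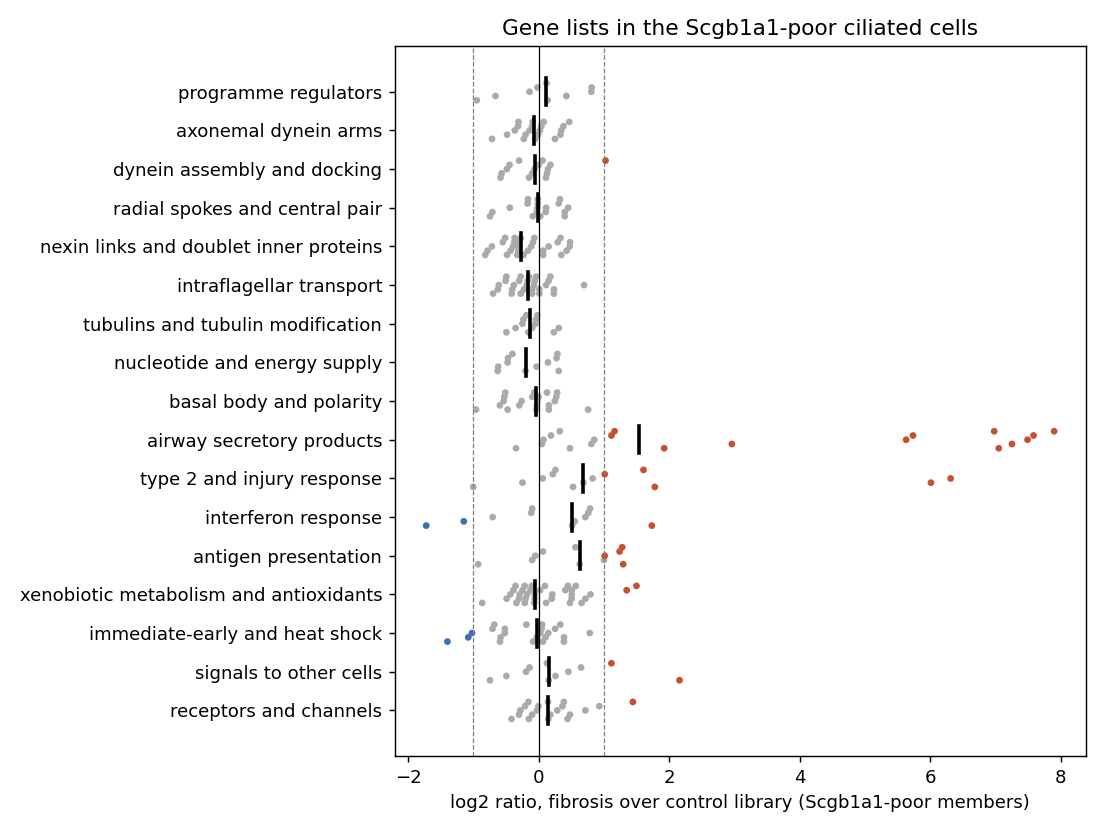
Each point is 1 tested gene of a list in the Scgb1a1-poor members, placed by its log2 ratio of fibrosis over control, red where it passed the 2-fold limit upward, blue downward and grey otherwise, with a black bar at the list's median. The 9 lists of the cilium and its supply sit around 0 with a single red point (Dyx1c1), and the airway secretory products reach to the right with 12 red points.

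Of the airway secretory products tested, 12 of 20 were higher in poor members, 11 of 21 in rich members and 13 of 23 over all members, and 0 were lower in any. Of the 12 in poor members 9 reached the minimum of 20 UMIs only with the fibrosis library. For such genes the filter favours a higher value in that library. Among the 11 that reached it in the control library alone, 3 were higher (Lcn2, Cxcl17 and Clu). In rich members 4 of the 11 higher genes reached it only with the fibrosis library. Among the 16 that reached it there in control alone, 7 were higher. Other classes moved in the same direction. Over all members the list's median log2 ratio was 1.36. With the shift subtracted it was 0.10, over only those genes that have a shift, so the 2 medians cover different genes. Without the members with goblet markers described next it was 0.86. The higher genes fell into genes held by a few cells and genes spread over many. In control poor members Clca1, a secreted protein of mucous cells, Bpifb1, an antibacterial airway protein, Muc5b, a gel-forming mucin, and Chil4, a chitinase-like protein, had 0 UMIs each. In fibrosis poor members Clca1 had 102 UMIs, at least 31.7-fold higher against a floor of 3 counts in the control sum, and the shift of Clca1 was 4.95. Of these 99 lay in 3 cells, which are the 3 poor members with at least 3 of 6 goblet markers (Muc5ac, Muc5b, Spdef, Agr2, Bpifb1 and Tff2). The same 3 cells held 42 of the 42 Chil4 UMIs and 594 of the 637 of Scgb3a1, a secretoglobin of upper airways that is not among the markers and had a shift of 1.90. They also held 66 of 67 Muc5b and 126 of 127 Bpifb1 UMIs, which were part of how the cells were picked, and Bpifb1 had a shift of 2.69. A single cell held 406 of the 407 UMIs of Bpifa1, and without it the log2 ratio of Bpifa1 in poor members went from 7.25 to -0.80, beside a shift of -0.46. Without the 3 cells, Clca1 had 3 UMIs, Chil4 0 and Scgb3a1 43 in 15 members, against 4 in control.

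Members with at least 3 goblet markers numbered 3 of 111 in the control library (2.70%, 0.561 to 7.70) and 17 of 115 in the fibrosis library (14.8%, 8.85 to 22.6). Of those, 3 and 14 were Scgb1a1-rich, which is 8.11% of 37 and 30.4% of 46 rich members. The count was not particular to ciliated members: 3 of 31 control and 19 of 61 fibrosis club-like cells also had at least 3 goblet markers. The members with goblet markers were deep, with medians of 35147 and 27828 UMIs, and whether depth bears on the count was not tested. Reg3g, a secreted lectin, had 288 UMIs in 9 fibrosis poor members, 1 of which held 45.1% of them, against 1 UMI in control and a shift of 3.37.

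**Figure D4:**
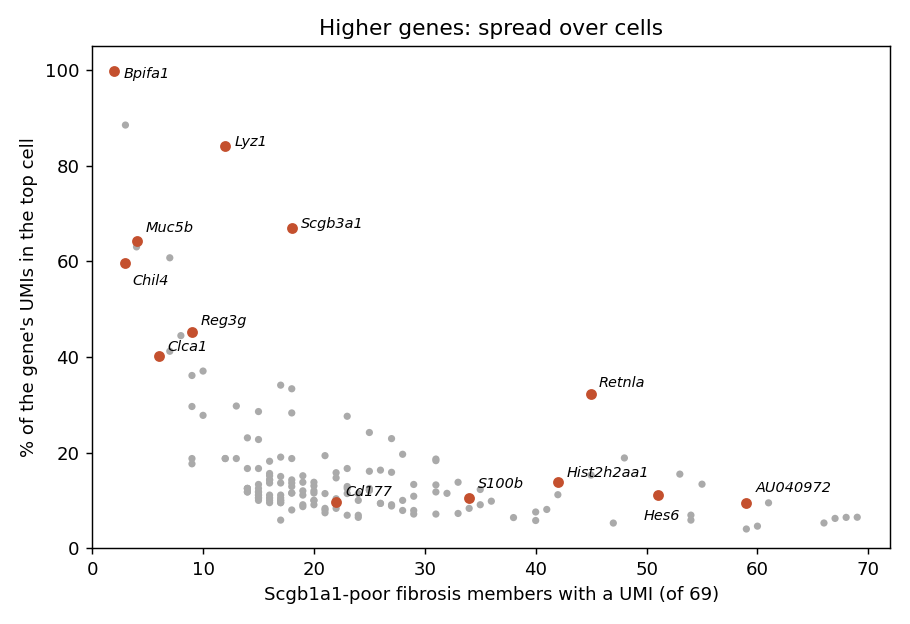
Each point is 1 of the 161 genes higher in fibrosis Scgb1a1-poor members, by the number of the 69 cells with a UMI (x axis) and the percent of its UMIs in the top cell (y axis), with labelled genes in red. Bpifa1, Muc5b and Chil4 lie at the upper left, in 2 to 4 cells, Scgb3a1 has UMIs in 18 cells with 66.9% in the top one, and AU040972, Hes6, Hist2h2aa1 and S100b at the lower right, in 34 to 59 cells.

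Other secretory genes were less tied to the 3 cells. Pigr, the receptor that carries IgA across the epithelium, had 10 UMIs in 7 control and 87 UMIs in 23 fibrosis poor members, with a log2 ratio of 2.96 (2.07 to 4.13) and a shift of 1.56. Without the 3 cells with goblet markers its ratio was 1.74. Lcn2, an iron-sequestering antibacterial protein, went from 24 UMIs in 8 members to 99 in 18, with a ratio of 1.92 (1.29 to 2.65) and a shift of 1.31. Cxcl17, a mucosal chemokine, was at 339 CPM and 735 CPM in poor members, with a ratio of 1.11 (0.84 to 1.40), but its shift was larger, 1.75, and without its top cell the ratio was 0.93. Clu, an extracellular chaperone, was at 69.6 CPM and 157 CPM in poor members (ratio 1.16, 0.55 to 1.83) and at 76.4 CPM and 238 CPM in rich members (ratio 1.63, 1.29 to 2.00), with a shift of 0.38. Without its top cell the ratio of Clu in poor members was 1.00, just short of 2-fold.

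Retnla, a secreted protein induced by type 2 cytokines, stood in the sum over poor members at the level seen in B-cell-like cells. It had 4 UMIs in control and 310 in fibrosis poor members, at 8.98 CPM and 649 CPM, a log2 ratio of 6.01 (4.81 to 8.06). B-cell-like cells, which should not make it, had 6.78 CPM and 659 CPM, so in the fibrosis library the poor members stood no higher than these. The 3 cells with goblet markers held 197 of the 310 UMIs. The other 66 fibrosis poor members held 113 and lay below the B-cell-like level, and the log2 ratio without the 3 cells was 4.69 (3.45 to 6.75). In rich members Retnla rested on 523 and 24909 UMIs, at 454 CPM and 18820 CPM, a ratio of 5.37 (5.25 to 5.50), beside 194 CPM and 19667 CPM in club-like cells and a shift of 6.57. With cells thinned to 1500 UMIs, a Retnla UMI was seen in 30.4% of fibrosis poor members (65.2% unthinned) and in 26.1% of fibrosis B-cell-like cells (40.8% unthinned). In fibrosis rich members that share was 82.6%. Chil3, a chitinase-like protein of macrophages, was also higher, at 78.5 CPM and 272 CPM in poor members, with a ratio of 1.78 (1.25 to 2.38) and a shift of 1.46. B-cell-like cells held more of it, at 244 CPM and 863 CPM. Over the list of type 2 and injury response, 5 of 13 tested genes were higher in poor and 9 of 15 in rich members, and 0 were lower in either. The 5 were Retnla, Chil3, Chil4, Lrg1 and Areg, of which Retnla and Chil3 stood no higher than in B-cell-like cells of the fibrosis library, Chil4 lay in the 3 cells with goblet markers, and Areg fell short of 2-fold without its top cell. For comparison, 2.46% of all tested genes were higher in poor and 4.4% in rich members. Of the 5 genes, 3 reached the UMI minimum only with the fibrosis library, as did 4 of the 9 in rich members. For such genes the filter favours a higher value in that library. Among the 10 that reached it in the control library alone, 2 were higher in poor members (Chil3 and Areg). In rich members it was 5 of 11. Over all members the list's median was 1.25, and 0.60 without members with goblet markers. With the shift subtracted it was 0.33, over only those genes that have a shift, which leaves out Chil4.

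A further set of genes was chosen after their values were seen, from those outside the secretory list that passed in poor and in rich members. Hes6, a basic helix-loop-helix factor, was at 141 CPM (109 to 181) in control and 375 CPM (322 to 434) in fibrosis poor members, a log2 ratio of 1.40 (0.99 to 1.84). In rich members it was 45.1 CPM and 127 CPM, a ratio of 1.48 (1.03 to 1.97), and its shift was 0.20. The UMIs lay in 37 of 74 control and 51 of 69 fibrosis poor members. After thinning 19.2% and 40.6% of poor members had a Hes6 UMI (50% and 73.9% before), against 5.87% and 6.95% of B-cell-like cells.

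S100b, a calcium-binding protein, had 19 UMIs in 11 control and 66 UMIs in 34 fibrosis poor members, a log2 ratio of 1.67 (0.94 to 2.52), and 7 and 35 UMIs in rich members, a ratio of 2.04 (0.93 to 3.54). Club-like cells held 0 and 1 S100b UMIs and cells with B cell markers 0 and 2, too few for a shift. The related S100a6 was at 536 CPM and 1487 CPM in poor members (ratio 1.47, 1.26 to 1.69) and at 154 CPM and 933 CPM in rich members (ratio 2.60, 2.37 to 2.84). Its shift was -0.31, while club-like cells were at 55.4 CPM and 587 CPM. A single fibrosis cell held 72.7% of the S100a6 UMIs of the rich members, and without it the ratio there was 0.77 (0.51 to 1.05), short of 2-fold. In poor members S100a6 stayed past it without the top cell, at 1.19.

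AU040972, annotated as an antisense transcript on chromosome 11 (79481719 to 79484031, minus strand, GRCm38), is 1 of the 15 genes with the largest excess in members and differed most among those, where A930003A15Rik (log2 ratio 1.06 in poor members) was the other past 2-fold. It had 166 UMIs in 43 control and 935 UMIs in 59 fibrosis poor members, at 373 CPM (318 to 434) and 1958 CPM (1835 to 2088), a log2 ratio of 2.39 (2.15 to 2.64). Rich members had 73 and 732 UMIs, a ratio of 3.12 (2.78 to 3.49). No shift could be given because other classes hold too few UMIs, with 0.376 CPM and 0.591 CPM in B-cell-like cells. Whether counting used the strand is not given in the sources used here, so reads of an overlapping gene cannot be told apart. After thinning 41.1% (29.7 to 53.2) of control and 69.6% (57.3 to 80.1) of fibrosis poor members had an AU040972 UMI, against 58.1% and 85.5% before thinning.

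Hist2h2aa1, a histone H2A gene on chromosome 3 (96245497 to 96246082, plus strand), had 2 UMIs in 2 control and 87 UMIs in 42 fibrosis poor members, a log2 ratio of 5.03 (3.45 to 8.41), and 1 and 107 UMIs in rich members, a ratio of 5.96 (4.03 to 11.86). Other classes moved in the same direction by less, with a shift of 1.81. Hist2h2aa2 is a near-identical copy of it and had 9 UMIs in each library over all deposited cells, against 432 and 1605 for Hist2h2aa1, so how reads were split between the copies is uncertain.

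Surface and stress genes were among the rest. Cd177, a surface protein best known from neutrophils, had 3 UMIs in 3 control and 41 UMIs in 22 fibrosis poor members, a log2 ratio of 3.47 (2.02 to 6.01), with a shift of -0.53 and 0 UMIs in club-like cells of either library. Ifitm1, an interferon-inducible membrane protein, was at 267 CPM and 890 CPM in poor members (ratio 1.73, 1.44 to 2.04) with a shift of -0.87. Of 11 tested interferon genes in poor members it was the 1 that passed as higher, and Usp18 (77 and 37 UMIs) and Bst2 (38 and 12 UMIs) were lower. The list's median log2 ratio in poor members was 0.51, against -0.03 over all genes. In rich members Rtp4 also passed as higher. Mt2, a metallothionein, was at 263 CPM and 744 CPM in poor members (ratio 1.50, 1.20 to 1.82) with a shift of 0.02, while Mt1 had a ratio of 0.66 and a shift of 0.60. Icam1, an adhesion molecule for leukocytes, had 5 and 30 UMIs, and Tspan8, a tetraspanin, 3 and 29 UMIs in poor members, with ratios of 2.37 (1.11 to 4.21) and 2.98 (1.48 to 5.53) and shifts of 0.20 and 0.27. Ptk7, a receptor of planar polarity, had 17 and 40 UMIs, with a ratio of 1.11 (0.28 to 2.05) that was 0.99 without its top cell, and a shift of 0.17. Areg, an EGF receptor ligand, had 40 and 87 UMIs (ratio 1.01, 0.47 to 1.60), a shift of 0.66, and a ratio of 0.82 without its top cell.

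**Figure D5:**
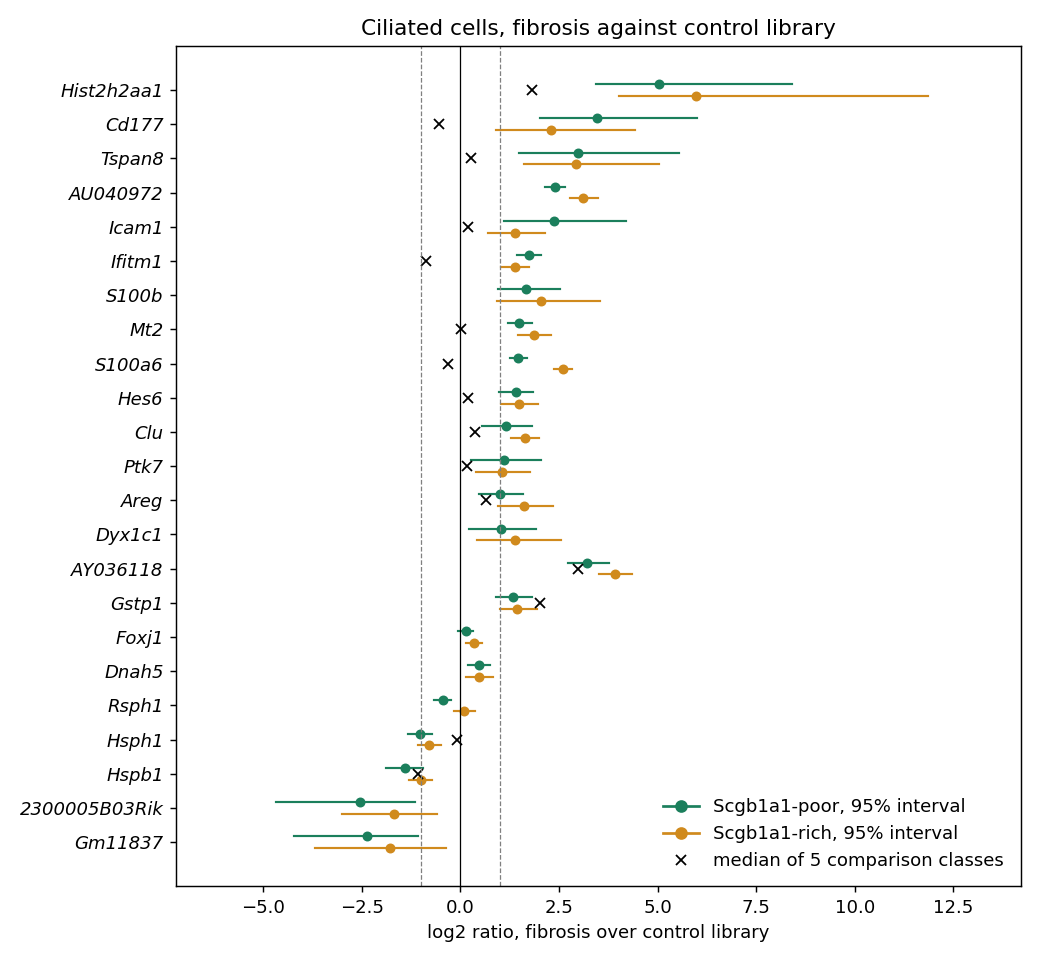
Log2 ratio of fibrosis over control for 23 genes in Scgb1a1-poor (green) and Scgb1a1-rich (orange) members, with lines for 95% intervals, dashed lines at 2-fold and a cross for the median of the 5 comparison classes where it could be given. For AY036118 the cross lies beside the value of the poor members, while for Ifitm1, S100a6 and Cd177 it lies on the other side of 0.

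Some ratios were about as large, or larger, in the other classes. The transcript AY036118 was at 80.8 CPM and 754 CPM in poor members, with a log2 ratio of 3.20 and a shift of 2.97. Gstp1, a glutathione transferase, had a ratio of 1.35 and a shift of 2.01. Genes of antigen presentation moved with the other classes too: H2-Aa, H2-Ab1 and H2-Eb1, chains of MHC class II, had ratios of 1.01, 1.28 and 1.29 in poor members and shifts of 0.99, 0.91 and 0.77. Over the list, 4 of 11 tested genes were higher in poor members, with H2-DMa the other, beside 2.46% of all genes. In rich members 0 of 11 were higher and Tap2 was lower. The ratios there were 0.50 (-0.05 to 1.09) for H2-Aa and 0.66 (0.17 to 1.19) for H2-Ab1. Without the top cell of each gene they were 1.43 and 1.21. Levels of the class II genes were low, with H2-Aa at 89.8 CPM and 182 CPM in poor members against 3106 CPM and 2655 CPM in B-cell-like cells. Without its top cell H2-Aa had a ratio of 0.83 in poor members.

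Of 23 immediate-early and heat shock genes tested in poor members, 3 were lower (the heat shock genes Hspb1 and Hsph1, and Btg2, an immediate-early gene) and 0 higher, with a median of -0.03. In rich members 4 of 25 were higher, the immediate-early genes Fos, Jun, Egr1 and Dusp1, and 1 was lower, Hspb1. Over all members Hspa1a was higher and Hspb1 lower. Hsph1, a chaperone of the Hsp110 family, was at 584 CPM (515 to 659) and 287 CPM (241 to 339), a log2 ratio of -1.02 (-1.33 to -0.72), with a shift of -0.09 and a ratio of -0.79 in rich members. Without its top cell the Hsph1 ratio in poor members was -0.98, short of 2-fold. Hspe1, a mitochondrial chaperonin, was at 808 CPM and 379 CPM, a ratio of -1.09 (-1.36 to -0.83), with a shift of -0.11 and -0.66 in rich members. Hspb1, a small heat shock protein, had a ratio of -1.40 (-1.88 to -0.94) in poor members and was also lower in rich members, where its ratio was -0.90 without its top cell, beside a shift of -1.08. The cytosolic chaperone Hsp90aa1 was lower by less than 2-fold, at 5274 CPM and 3682 CPM, a ratio of -0.52 (-0.61 to -0.43), with a shift of -0.40. Gm11837 (26 and 5 UMIs) and 2300005B03Rik (24 and 4 UMIs in poor members, 26 and 9 in rich) were lower in both kinds of member. The latter was 197-fold above other cells in the control library. Haemoglobin genes also passed as lower, but a single control member of 6883 UMIs held 548 of the 548 Hbb-bs UMIs and 389 of the 389 Hba-a1 UMIs of the poor members.

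Few genes of detoxification and antioxidants, which are abundant in airway cells, passed the 2-fold limit. Of 35 tested in poor members 2 were higher (Gstp1 and Mt2) and 0 lower, with a median of -0.06. Of 43 tested in rich members 3 were higher (Gsto1, Gstp1 and Mt2) and 1 lower (Sult1d1). The median there was also -0.06, and the lowest log2 ratio was -2.45. Cbr2, a carbonyl reductase, was at 7384 CPM and 5647 CPM in poor members (ratio -0.39, -0.46 to -0.31) and at 8792 CPM and 5406 CPM in rich members (ratio -0.70, -0.75 to -0.66), beside 7575 CPM and 5236 CPM in club-like cells. Scgb1a1 was at 11717 CPM and 12123 CPM in poor members, with B-cell-like cells at 10323 CPM and 6824 CPM. The log2 ratio of 0.05 in poor members rested on few cells, since it was -0.82 without the 3 cells with goblet markers and 0.47 without the top cell.

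The study's title concerns M-CSF and its receptor, and members held few such transcripts. Csf1, the gene of M-CSF, had 0 UMIs in control and 2 in fibrosis members, and the receptor gene Csf1r 10 and 6. Il34, the other ligand of that receptor, had 8 UMIs in control and 14 in fibrosis members, a log2 ratio of 0.60 (-0.72 to 2.09). Csf2, the gene of GM-CSF, had 1 and 0 UMIs. No difference in these genes was detectable at this depth.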

How the data were processed

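The deposited files give UMI counts per gene and cell as whole numbers, not normalised. Per the submitters' processing notes, bcl2fastq and Cell Ranger 1.3 were used with the mm10 build. The alignment settings, annotation and the authors' cell filter are not given in the sources used here, and deposited cells already lay above a lower limit of UMIs. From these counts, UMIs were summed over the members of each library and scaled to CPM. Intervals are exact at 95% (Poisson for levels, conditional binomial for ratios, Clopper-Pearson for shares). Log2 ratios had 0.5 UMI added to each sum, genes needed 20 UMIs over both libraries, and a floor of 3 counts stood for a sum of 0. Comparison classes needed 4 markers of their list, fewer than 4 rule genes and 50 cells in each library, and a shift needed 10 UMIs in at least 3 classes. Names ending in "-like" are rebuilt from such markers, so they need not match the study's types. Doublets were scored with the scrublet routine of scanpy 1.11.5 and kept. The calculation was tested on simulated counts. Members, lists and rules were chosen with earlier results of these data known. Named genes are the markers, the 15 genes with the largest excess in members, the called genes with intervals farthest from 0, those farthest from their shift, and up to 4 abundant genes and each called gene of a list. Others are said to have been chosen after their values were seen. Positions are from GENCODE M21 (GRCm38), promoter sequences from RefSeq's GRCm38.p6 table, matched by symbol or synonym. Python packages were numpy 2.4.6, pandas 2.3.3 and scipy 1.17.1.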

Additional observations from a re-analysis of the deposited data

How the results depend on the processing

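No paired analysis was possible because each group has 1 library and both are labelled mouse 1, and no replicate could be left out. Against 295 genes higher and 98 lower over all members, 161 were higher with poor members alone, 124 higher and 38 lower with at least 50 UMIs per gene, 62 and 45 with cells thinned to 1500 UMIs, 543 and 383 by fold alone from the mean CPM of cells, 190 higher with the shift subtracted and 150 lower with Scgb1a1 out of the total. Of the 295 higher genes 226 had a shift, and genes without one could not be counted among the 190. Genes above the other cells numbered 460 at 16-fold, 1168 at 4-fold and 469 after thinning, against 724 at 8-fold. A mitochondrial limit of 5% moved the log2 ratio of median depth from 0.62 to 1.40. Leaving out members with 3 markers of any comparison class, as planned, kept 7 and 2 cells, the median member holding 3 (control) or 4 (fibrosis) AT2 markers. The share then had a log2 ratio of -1.60, with 31 genes higher, 27 lower and 41 above other cells, and the sign turned for Hba-a1 and Hbb-bs (0.95 each), Hes6 (-1.86) and Mt2 (-0.28). With the shift subtracted the sign turned for Cxcl17 (-1.07), Gstp1 (-0.64), H2-Aa (-0.25), H2-Ab1 (-0.013), Pigr (-0.20), Retnla (-1.16) and Scgb1a1 (0.048). It turned for Bpifa1 without goblet-marker members (-1.21), at the 5% limit (-0.37) and without its top member (-0.16). It turned for Hbb-bs without its top member (1.41), without top doublet scores (1.56) and in rich members (1.02). It turned for Rsph1 in rich members (0.10), Dnah5 after thinning (-0.0074), and Scgb1a1 in poor members (0.049) and after thinning (0.17). The cause was not tested. The 2 kinds of member, the size of the goblet-marker count and single-cell values rest on few cells of 1 mouse each, and depth limits genes under 20 UMIs. The split of members, leaving Scgb1a1 out of the total, leaving out goblet-marker members and leaving out a top member were added after the data were seen.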
